A study of Arabidopsis thaliana with 6 samples.

Results

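The 10 class III peroxidase loci described here are AT2G39040, AT3G01190 (PER27), AT1G05250 (PRX2), AT2G41480 (PRX25), AT5G64100, AT2G37130 (PER21), AT5G64120 (PRX71), AT5G66390 (PER72), AT5G42180 (PER64) and AT1G49570. They were selected on the measured intensity difference between the genotypes, since they were taken by locus from the authors' deposited table. Its 274 probe sets, out of 22746 on the array, were filtered by size of change and p. Each locus has 1 probe set in that table, and whether it has another on the array is not known here. These 10 are all the probe sets that the table describes as a peroxidase. Of them 9 were dimmer in the mutant and 1, AT1G49570, was brighter. Because the table was filtered on this same contrast, every difference between the genotypes below is a description and carries no test.

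The samples were whole seedlings of *Arabidopsis thaliana*, ecotype Col-0, aged 15 days, grown on vertical plates with 16 hours of light at 22 °C. Of the 6 one-colour Affymetrix arrays, 3 held RNA of wild type and 3 held RNA of the double mutant gapcp1gapcp2. The mutant is given in the labels by its genes only, GAPCP1 and GAPCP2, which encode the plastidial, glycolytic glyceraldehyde-3-phosphate dehydrogenase, and neither the alleles nor the number of lines is stated. The comparison asks which transcripts differ between these genotypes. An intensity is the deposited signal of a probe set on a linear scale in arbitrary units. Intensities of different probe sets were not set against each other, apart from the sum of root markers below. The 3 arrays per genotype limit the precision, and the arrays' median intensities lay between 110.7 and 117.

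Class III peroxidases are secreted plant enzymes that carry a haem group and use hydrogen peroxide to oxidise phenolic compounds in the cell wall. They couple monolignols into lignin, cross-link wall proteins, and can also make or consume reactive oxygen, so that they either stiffen or loosen the wall. The family is large in Arabidopsis, and many of its members are transcribed mainly in roots. In the endodermis of the root, peroxidases polymerise the lignin of the Casparian strip, the ring that seals the wall between neighbouring cells.

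PER64, the peroxidase that is held at the Casparian strip and takes part in its lignification, gave intensities of 293, 299 and 291 on the wild-type arrays and 140.1, 134 and 139 on the mutant arrays. Its mean went from 295 ± 4.01 to 138 ± 3.28 (SD, n = 3 each), so 46.8% of the wild-type level was left. The 3 arrays of each genotype lay close together and the genotypes did not overlap. On the log2(intensity + 16) scale the change of PER64, mutant minus wild type, was -1.01 ± 0.06 (SE).

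PER72, which acts in lignin formation, gave intensities of 425, 463 and 447 in wild type and 197, 206 and 192 in the mutant. Every wild-type array of PER72 was more than 2 times as bright as every mutant array, with the dimmest wild-type array 2.06 times the brightest mutant array. The level left in the mutant was 44.6% of wild type (log2 change -1.10 ± 0.07 SE). PER64 and PER72 had overlapping 95% intervals of the log2 change, from -1.16 to -0.87 and from -1.27 to -0.94. The intervals of PRX71 (-1.30 to -0.93), PER21 (-1.45 to -0.99), AT5G64100 (-1.55 to -1.09) and PRX25 (-1.66 to -1.09) overlapped both. This likeness is therefore not particular to PER64 and PER72, and the filter on fold change kept smaller changes out.

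Of the 15 other genes listed for the Casparian strip, 2 had a probe set that the deposited table names, and both were dimmer in the mutant. CASP1, a membrane protein that marks out the strip, gave intensities of 714, 769 and 777 in wild type and 263, 273 and 233 in the mutant (log2 change -1.50 ± 0.08 SE). ESB1, a dirigent-domain protein needed for the strip's lignin to form in the right place, gave 483, 445 and 435 in wild type and 177, 175 and 176 in the mutant (log2 change -1.29 ± 0.07 SE). Both also came through the filter on this contrast. The other 13 genes of that list, all 21 of monolignol synthesis and lignin laccases, all 13 of suberin and all 12 of hydrogen peroxide and superoxide handling were not analysed here, because no probe set was paired with them. Pairing came only through the filtered deposited table, so whether these genes were measured or changed is not known here.

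RNA came from whole seedlings, so fewer cells of a type and less RNA per cell cannot be told apart. Of 12 root cell markers 2 could be named, CASP1 of the endodermis and TIP2;3, a channel of the vacuolar membrane. The summed intensity of these 2 lay between 1073 and 1123 on the wild-type arrays and between 338 and 392 on the mutant arrays, and neither marker was at 0. CASP1 makes up most of this sum and is also counted in the Casparian strip list. Both markers could be named only because they passed the filter on this contrast, so their difference is a description too. TIP2;3 alone gave 359, 354 and 335 in wild type and 98.0, 118 and 105 in the mutant. The part of root cell content in the peroxidase values was not tested. None of the 8 leaf markers or the 5 xylem markers had a named probe set, so the share of leaf or vascular tissue could not be read.

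**Figure D1:**
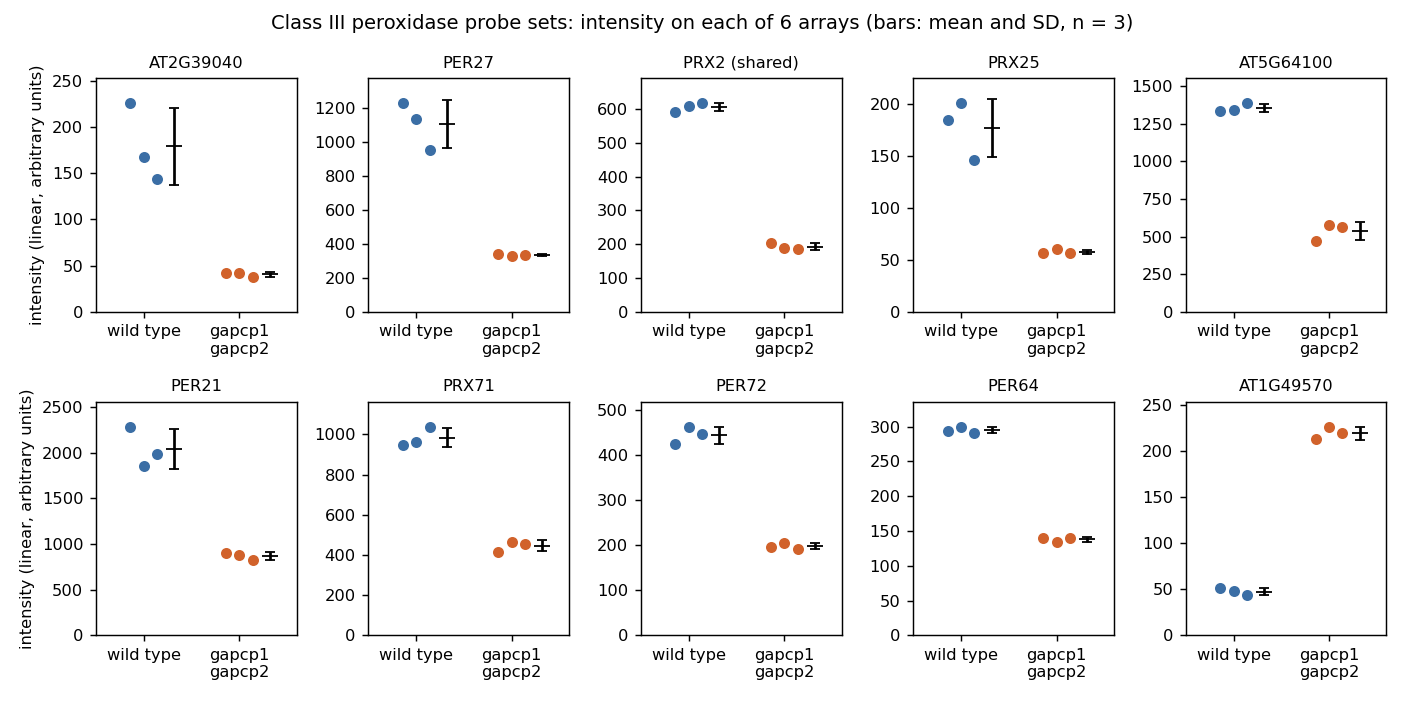
Intensity of each of the 10 peroxidase probe sets on the 6 arrays (vertical axes, linear from 0, arbitrary units), with wild type in blue and gapcp1gapcp2 in orange, points in replicate order, and the mean and SD (n = 3) as black bars. The genotypes are apart in all 10 panels, with the mutant dimmer in 9 and brighter in AT1G49570. The 10 were selected on this contrast, and over all 22746 probe sets the genotypes are apart for 32.1%.

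PRX2, PRX25 and PRX71 are known as a set from Arabidopsis stems, where disrupting them alters the content and structure of lignin. All 3 were dimmer in the mutant seedlings. PRX2 gave 593, 610.3 and 617 in wild type and 204, 188 and 185 in the mutant, which leaves 31.7% of the wild-type level (log2 change -1.58 ± 0.07 SE). Its probe set is of the shared kind (suffix _s_at), which can detect more than 1 transcript, so its values cannot be given to PRX2 alone.

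PRX25 gave 185, 200.4 and 146 in wild type and 56.6, 60.1 and 56.7 in the mutant, leaving 32.7%. The 3 wild-type arrays of PRX25 were spread widely and the 3 mutant arrays hardly at all, without any overlap. Its log2 change was -1.38 ± 0.12 (SE), and -1.58 and -0.98 with a pseudocount of 1 and 64, because its mutant intensity is low.

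PRX71, which also takes part in limiting cell expansion, gave 949, 964 and 1037 in wild type and 415, 467 and 454 in the mutant. The level left was 45.3% (log2 change -1.12 ± 0.08 SE), the highest share left of the 3. The 95% intervals of the log2 change were -1.30 to -0.93 for PRX71, -1.75 to -1.42 for the shared PRX2 probe set and -1.66 to -1.09 for PRX25, and the differences between them were not tested.

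PRX71 and AT5G64100 are near neighbours, with 1 protein-coding gene, AT5G64110, between them in the RefSeq annotation (TAIR10.1). No other 2 of the 10 loci lie this close, and the next closest, PER21 and AT2G39040, have 196 protein-coding genes between them. AT5G64100, a putative peroxidase, gave 1338, 1339 and 1386 in wild type and 468, 579 and 561 in the mutant. It kept 39.6% of its wild-type level (log2 change -1.32 ± 0.09 SE). For both neighbours mutant replicate 1 was the lowest array, at 87.3% of the mutant mean for AT5G64100 and 93.1% for PRX71. Wild type replicate 3 was the highest wild-type array for both, at 102% and 105% of the wild-type mean. Neither trait was particular to these neighbours. Mutant replicate 1 was the lowest mutant array for 4 of the 10 loci, and wild type replicate 3 the highest wild-type array for 3.

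PER27 and PER21 were described as numbered peroxidases by the authors. PER27 gave 1229.7, 1137 and 953 in wild type and 341, 328 and 337.5 in the mutant, so that 30.3% was left (log2 change -1.67 ± 0.10 SE). The wild-type arrays of PER27 differed among themselves (coefficient of variation 12.7%), whereas those of the mutant were nearly equal (2.08%). PER21 gave 2279.7, 1855 and 1990.1 in wild type and 902, 876 and 821 in the mutant. Its 2 genotypes did not overlap, and 42.4% of its wild-type level was left (log2 change -1.22 ± 0.10 SE).

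AT2G39040, a putative peroxidase, had the lowest share left. Its intensities were 226, 168 and 144 in wild type and 41.9, 42.2 and 37.7 in the mutant. Thus 22.6% of the wild-type mean remained, and over all pairs of a mutant with a wild-type array the share ranged from 16.7% to 29.2%. The wild-type arrays of AT2G39040 disagreed more than those of the other 9 (coefficient of variation 23.4%), and the mutant arrays did not come near them. Its log2 change of -1.77 ± 0.15 (SE) became -2.09 with a pseudocount of 1 and -1.20 with one of 64, and it lay between -1.90 and -1.60 when 1 array at a time was left out.

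AT1G49570, a putative peroxidase, differed from the others in direction. Its intensities were 51.1, 47.6 and 43.4 in wild type and 212, 226 and 219 in the mutant. The mean went from 47.4 ± 3.89 to 219 ± 6.70 (SD, n = 3 each), 4.62 times the wild-type level. The dimmest mutant array was 4.15 times the brightest wild-type array, the widest gap among the 10. The log2 change was 1.89 ± 0.07 (SE), with 2.19 at a pseudocount of 1 and 1.35 at 64, since the wild-type level is low.

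**Figure D2:**
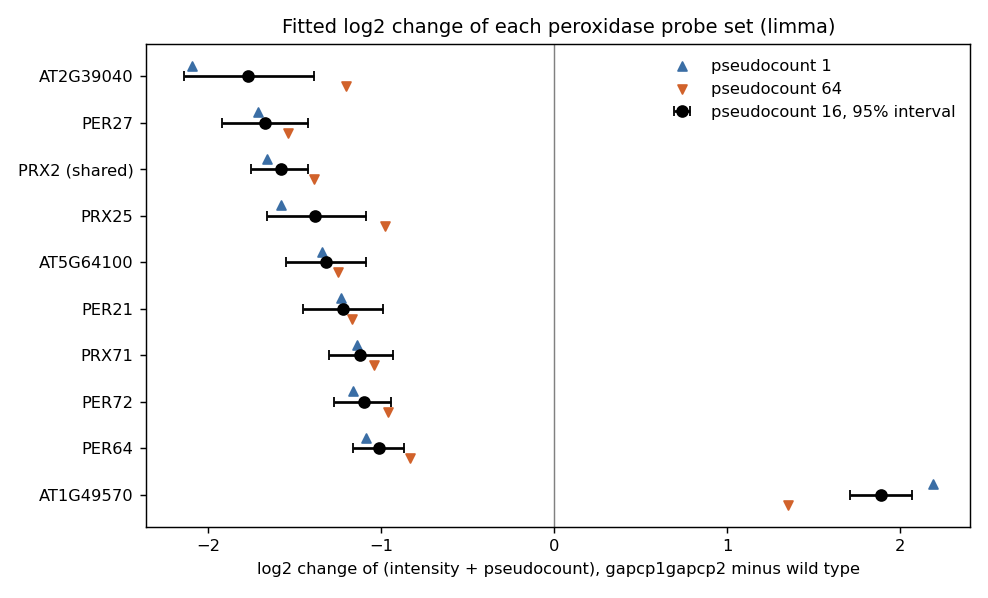
Fitted log2 change (horizontal axis, gapcp1gapcp2 minus wild type) of each peroxidase probe set, as black points with 95% intervals at a pseudocount of 16, and as triangles at pseudocounts of 1 and 64. The changes run from -1.77 for AT2G39040 to -1.01 for PER64, with AT1G49570 at 1.89, and the triangles are widest apart for the dim AT2G39040, PRX25 and AT1G49570.

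Ordered by the log2 change, the 9 dimmer probe sets ran from -1.77 to -1.01. AT2G39040, PER27 and PRX2 came first (-1.77, -1.67 and -1.58), PRX25, AT5G64100 and PER21 followed (-1.38, -1.32 and -1.22), and PRX71, PER72 and PER64 were last (-1.12, -1.10 and -1.01). The 95% intervals of neighbours in this order overlapped throughout. The interval at the lower end, that of AT2G39040, ran from -2.14 to -1.39, and the interval at the upper end, that of PER64, from -1.16 to -0.87. No difference between members was tested. Intensity ratios without a pseudocount gave the same order except that PER72 (44.6% left) and PRX71 (45.3% left) changed places.

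Limma, a linear model with moderated variances fitted to all 22746 probe sets, called the 9 lower and the 1 higher at an adjusted p under 0.05. Over all probe sets it called 11.0%, with 5.13% lower (1167) and 5.86% higher (1334), and nothing is read from the members' count, because the contrast chose them. Those totals changed when 1 array was omitted, which also leaves the fit fewer arrays. Calls lower dropped to 617 without wild type replicate 2, to 570 without mutant replicate 2 and to 560 without mutant replicate 3. Calls higher dropped to 805, 620 and 637 in the same fits. Without wild type replicate 1, wild type replicate 3 or mutant replicate 1, calls lower were 801, 904 and 985. Calls higher were then 937, 960 and 1362. None of these fits changed the call or direction of a peroxidase. The genotypes' arrays did not overlap for any of the 10 peroxidases, and over all probe sets they were apart with the mutant lower for 16.6% and with the mutant higher for 15.5%.

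The median log2 change of the 10 was -1.27, beside -0.015 over all 22746 probe sets. Of the 274 probe sets in the authors' deposited list, 106 (38.7%) were lower in the mutant, with a median log2 change of -1.34, and the 9 lower peroxidases had a median of -1.32. The peroxidases thus stood on the lower side in 9 of 10 cases, with sizes near the middle of the list, and no test was made of that share. By rank over the whole array AT2G39040 had the 25th lowest log2 change, PER27 the 32nd and PER64 the 169th, and AT1G49570 had the 49th highest.

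**Figure D3:**
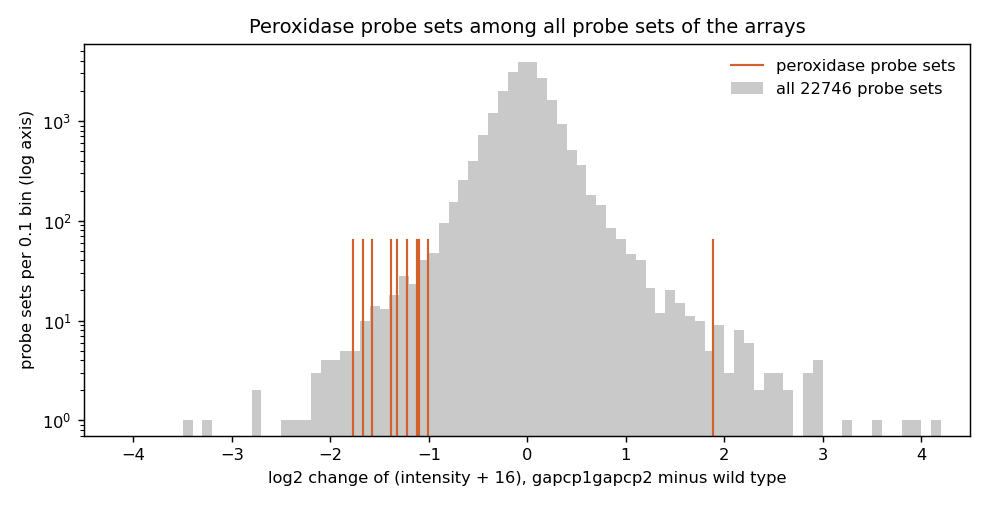
Number of probe sets per 0.1-wide bin of log2 change (vertical axis, log scale) for all 22746 probe sets in grey, with the 10 peroxidases as orange lines of arbitrary height. The 9 lower peroxidases lie between -1.77 and -1.01 in the lower tail and AT1G49570 lies at 1.89 in the upper tail.

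The spread between arrays of 1 genotype differed from gene to gene. In wild type the coefficient of variation ran from 1.36% for PER64 to 23.4% for AT2G39040, with a median of 6.49%. In the mutant it ran from 2.08% for PER27 to 11.1% for AT5G64100, with a median of 4.24%. Wild type replicate 3 was the lowest wild-type array for 5 of the 10, AT2G39040, PER27, PRX25, PER64 and AT1G49570, and the highest for 3, PRX2, AT5G64100 and PRX71. In the mutant, replicate 2 was the highest array for 6 of the 10 and the lowest for 2, PER27 and PER64.

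**Figure D4:**
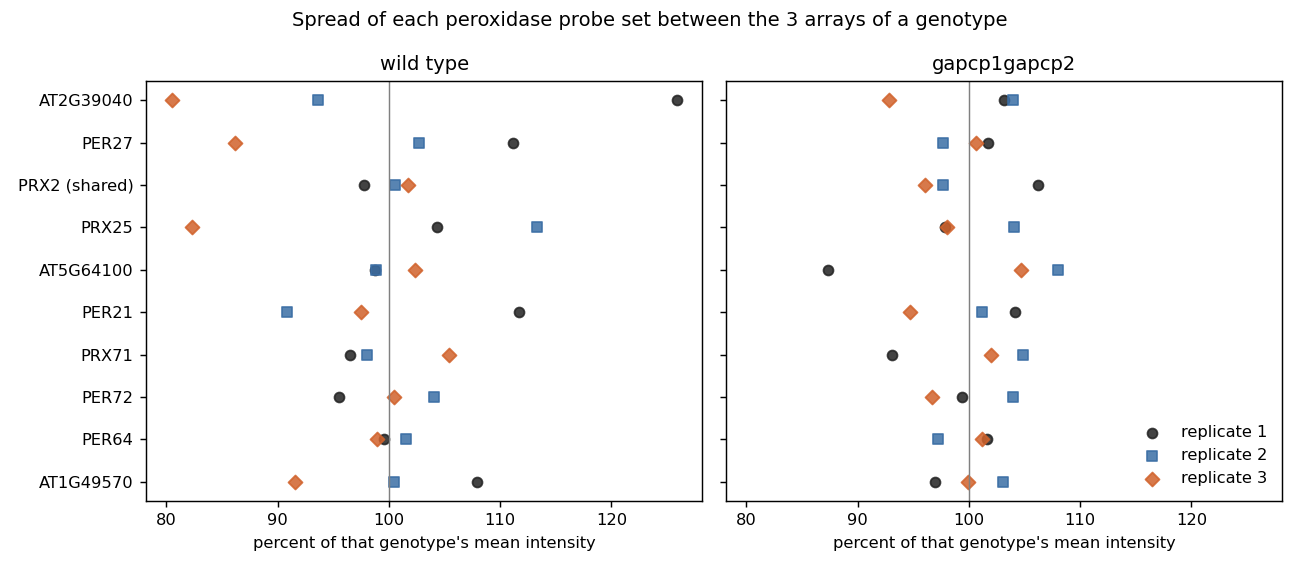
Intensity on each array as a percentage of the mean of its own genotype (horizontal axis), for the 10 peroxidases, with wild type on the left, gapcp1gapcp2 on the right and 1 symbol per replicate. Wild-type values reach from 80.5% to 126% for AT2G39040 and stay between 98.9% and 101.5% for PER64.

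The limits were a fold change over 2, a difference of means over 100 and a p of at most 0.05. They are those given with a second deposited comparison, which holds the same 274 folds as the authors' deposited table. PER64 lay just inside the fold limit, with a fold change of 2.14 in the authors' deposited table, followed by PRX71 (2.21) and PER72 (2.23). AT2G39040 and PRX25 lay just inside the limit on the difference in the authors' deposited table, at 111 and 113 intensity units. A peroxidase just outside these limits is not given, because probe sets beyond the table are not paired with loci here.

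For 3 of the 10, a group mean in the authors' deposited table is not covered by the 3 arrays of that genotype. AT2G39040 has means of 143 and 32.2 in the authors' deposited table, below the lowest wild-type array (144) and the lowest mutant array (37.7). PER64 has means of 281 and 131 in the authors' deposited table, again below all arrays of the same genotype (lowest 291 and 134). PRX25 has a mutant mean of 56.0 in the authors' deposited table, just below its lowest mutant array (56.6). Whether that table rests on these 6 arrays alone is therefore unknown. The array numbers given with the second deposited comparison, which holds the same 274 folds, go up to 12.

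Among the 247 other probe sets of 1 locus in the deposited table, those most like PER64 over the 6 arrays were CYP78A8, a cytochrome P450 gene, APS4, an ATP sulfurylase gene of sulfate assimilation, and AGP22, an arabinogalactan protein gene of the cell wall. Pearson correlations of their log2 values with those of PER64 were 0.9996, 0.9989 and 0.9989. The arrays fall into 2 genotypes, so these values mainly restate that each gene is lower in the mutant with little spread. CYP78A8 gave 165, 176 and 167 in wild type and 32.6, 31.7 and 32.6 in the mutant. AGP22 gave 856, 936 and 901 in wild type and 231, 229 and 226 in the mutant. CASP1 and ESB1 were not among these 3.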

How the data were processed

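RNA of 3 wild-type and 3 gapcp1gapcp2 seedling samples was measured, grouped by the sample titles. The description fields, which speak of embryos, were not used. The authors deposited a linear intensity per probe set and array, and GCOS is the only tool in the submitters' processing notes, with version and scaling not given in the sources used here. The authors also deposited a comparison table with group mean intensity, a signed fold change score and a p-value. A second file holds the same 274 folds, and its header gives the filter limits and the array numbers.

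Intensities below 0 (1.85% of all, 0 in the members) were set to 0, a choice made after the files were seen, and log2(intensity + 16) was tested without further normalisation using limma 3.58.1 (R 4.3.3, lmFit, eBayes), two-sided, with Benjamini-Hochberg adjustment over 22746 probe sets at 0.05. The labels do not say how separately the biological replicates were raised, and the plants grew at the same time. Names come from the table or from RefSeq (TAIR10.1, all 10 loci matched). The members, the gene lists and the rule for named genes (all members, list members that can be named, and the 3 probe sets most like PER64) were chosen with earlier results of these data known. Python 3.11.15 and matplotlib 3.10.9 were used for summaries. GAPCP1 and GAPCP2 were not analysed here, so the genotype labels were not checked.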

Additional observations from a re-analysis of the deposited data

How the results depend on the processing

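Quantile normalisation, median centring, pseudocounts of 1 and 64, leaving out the dimmest 40% of probe sets, trend and robust moderation, a 2-fold minimum, the replicate block and leaving out each array in turn were tried. Of 140 alternative values of the 10 peroxidases, 140 kept their direction and stayed called, and 0 reversed. These loci were chosen on this contrast, so that is no sign of stability. Over all probe sets, calls were 2501 (1167 lower, 1334 higher). A 2-fold minimum left 390 (168 lower, 222 higher), by construction. Leaving out 1 array gave 1190 to 2347 calls (560 to 985 lower, 620 to 1362 higher). The replicate block gave 1687 (777 lower, 910 higher), and the cause was not tested. Deviations of same-numbered arrays from their group means correlated at 0.234, 0.0186 and 0.0174, which is too low for numbers 2 and 3 to call the samples paired. For number 1 alone was the same-numbered array of the other genotype also the best match. The log2 changes of AT2G39040, PRX25 and AT1G49570, which are dim in 1 genotype, moved most with the pseudocount, and those of AT2G39040 and PRX25 had the highest SE (0.15 and 0.12).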
